A study of Mus musculus with 34 samples.

Results

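The 550 long non-coding RNA (lncRNA) probes described here are those whose signal varied most between the fractions of 3 mouse brains. A probe was taken when its identifier starts with A_30_, the prefix of the lncRNA probes on the array, when its spots were flagged well above background in at least 10 of the 34 fractions and in at least 1 fraction of each cutting plane, and when the SD of its log2 value over the 34 fractions was at least 0.7 in the table that the authors deposited. Of the 55681 probes that are not controls, 16251 carry the prefix, 5793 of these passed the condition on detection, and 550 (9.49% of the 5793) also reached the SD. The members were thus chosen by their log2 values and detection flags. The other 5243 detected lncRNA probes serve as the comparison. Because the spread over fractions chose the probes, the spread and the position of peaks are given as descriptions with no test.

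The brains came from 3 male C57BL/6J mice aged 3 days, and each brain was cut along 1 axis into 15 coronal, 8 horizontal or 11 sagittal fractions. The labels give a width of 500 micron for a fraction and say that sagittal fractions 1 and 11 each pool 2 cut fractions, but not at which end of the brain the numbers start, and they name no treatment or allele beside the strain. Each fraction was hybridised once to a single-colour Agilent mouse array, so no value has a replicate or an error, and a plane cannot be told apart from its mouse. A fraction holds many cell types, and in such material fewer cells of a type and less RNA per cell cannot be told apart.

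Signals are given on the log2 scale relative to the 75th percentile of the array, so that 0 is the level of that percentile, and a probe is compared with itself only, since the brightness of different probes is not on a common scale. The log2 percentile lay between 8.07 and 9.18 on the 34 arrays, and 29598 to 37091 of 59305 spots on an array were well above background. Gene lists for brain regions placed the planes: the mean profile of the cerebellum list (12 of 15 genes detected) was highest in coronal fraction 1, that of the hindbrain Hox list (14 of 14) in coronal fraction 2, that of the midbrain list (14 of 15) in coronal fraction 6, that of the cortex and hippocampus list (16 of 16) in coronal fraction 13 and that of the olfactory bulb list (14 of 15) in coronal fraction 15. These lists describe the direction of the series and were not used to assign a fraction to a region.

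Long non-coding RNAs are transcripts that are not known to code for a protein. Many are made in only some cell types, and many lie beside genes of transcription factors, sometimes sharing a divergent promoter with them. In the developing brain, transcription factors of the homeobox, forkhead and POU families are made in bands along the neuraxis, for example Hox genes in the hindbrain and spinal cord and Otx2 in the diencephalon and midbrain. A lncRNA transcribed in the same cells as such a gene has a profile like that of the gene over serial fractions, and the profile alone does not tell whether one acts on the other.

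Most of the 550 probes have no gene name. The files name 544 of them by a genomic interval and a strand on the mouse build mm9, 281 on the forward strand, 261 on the reverse strand and 2 with no strand in the name, and the remaining 6 by the names H19 (5 probes) and KCNQ1ot1 (1 probe). They fall on 427 different intervals or names, and 83 intervals carry 2 or more of them and hold 206 in all, so that probes of 1 interval are repeated readings of 1 region and not separate loci. The interval had a median length of 12026 bases, against 13326 bases for the other detected lncRNA probes. Neither probe sequences nor a genome of mm9 were used here, so that the letters under a probe are not shown, and whether an interval overlaps the gene with the most similar profile was not tested.

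The non-coding genes Crnde, Gm2694 and 2900092D14Rik of RefSeq had the profiles nearest to those of probe groups described further on, and their promoters are shown because the probes that follow each gene move together. Each run holds 250 bases before and 50 bases after the start of the gene on the strand of the gene, from RefSeq (assembly GRCm38.p6), with 3 motifs in capitals where they occur on either strand: the TATA box (TATAAA), the CCAAT box (spelled as its name) and the GC box (GGGCGG). No 2 matches overlap in these runs.
Crnde: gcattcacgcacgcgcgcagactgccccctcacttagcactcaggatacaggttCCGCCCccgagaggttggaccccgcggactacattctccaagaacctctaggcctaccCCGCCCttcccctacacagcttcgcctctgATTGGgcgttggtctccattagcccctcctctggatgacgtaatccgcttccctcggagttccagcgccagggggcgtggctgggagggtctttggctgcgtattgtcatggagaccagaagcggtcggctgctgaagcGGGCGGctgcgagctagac
Gm2694: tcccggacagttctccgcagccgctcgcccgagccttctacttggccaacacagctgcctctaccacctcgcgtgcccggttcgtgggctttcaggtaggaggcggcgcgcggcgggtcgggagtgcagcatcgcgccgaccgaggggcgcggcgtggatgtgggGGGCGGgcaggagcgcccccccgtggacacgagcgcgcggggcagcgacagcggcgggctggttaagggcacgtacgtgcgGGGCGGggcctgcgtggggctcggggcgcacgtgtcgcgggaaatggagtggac
2900092D14Rik: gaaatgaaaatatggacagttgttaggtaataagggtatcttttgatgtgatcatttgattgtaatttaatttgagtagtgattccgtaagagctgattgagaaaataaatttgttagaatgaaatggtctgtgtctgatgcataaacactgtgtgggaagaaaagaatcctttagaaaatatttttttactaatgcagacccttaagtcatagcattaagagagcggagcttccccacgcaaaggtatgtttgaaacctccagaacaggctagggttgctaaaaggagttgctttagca
The promoter of Crnde had a GC content of 62.7% with 22 CpG, 3 matches to GGGCGG or its reverse complement and 1 match to CCAAT or its reverse complement. That of Gm2694, with 73.7% GC and 42 CpG, held GGGCGG in 2 places. The promoter of 2900092D14Rik had 35.7% GC, 3 CpG and none of the letters searched. Of 32841 promoters of the same length, 13.6% held TATAAA, 37.4% held CCAAT and 35.7% held GGGCGG, with a median of 7 CpG, so that these matches are common and are given as a description of the sequence.

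The SD over fractions ran from 0.70 to 2.69 with a median of 0.83, and the distance from the lowest to the highest fraction had a median of 3.73 on the log2 scale. The probes just inside the threshold were A_30_P01027437, A_30_P01028959 and A_30_P01032903 with an SD of 0.7001, 0.7005 and 0.7009, and those just outside were A_30_P01026083, A_30_P01029470 and A_30_P01031356 with 0.6998, 0.6982 and 0.6982. Detection was patchy: a probe was well above background in a median of 21 of 34 fractions, against 34 for the other lncRNA probes, and 100 of 550 were detected in all fractions. Values that are not well above background enter the SD, and a single fraction often decided membership, since 240 probes fell under 0.7 and 24 under 0.5 when 1 fraction was left out. Taken over the detected fractions alone, the SD was 0.7 or more for 255 probes, 248 of them among the 550, and after another background correction (normexp with an offset of 50) it was so for 56 probes, all among the 550. Protein-coding probes reached the same SD at a similar rate, 7.77% of 20061 detected probes with an NM_ accession. By chromosome, the share of detected lncRNA probes that belonged to the set was highest on chromosome 2 (56 of 381, 14.7%) and lowest on chromosome 17 (23 of 379, 6.07%).

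**Figure D1:**
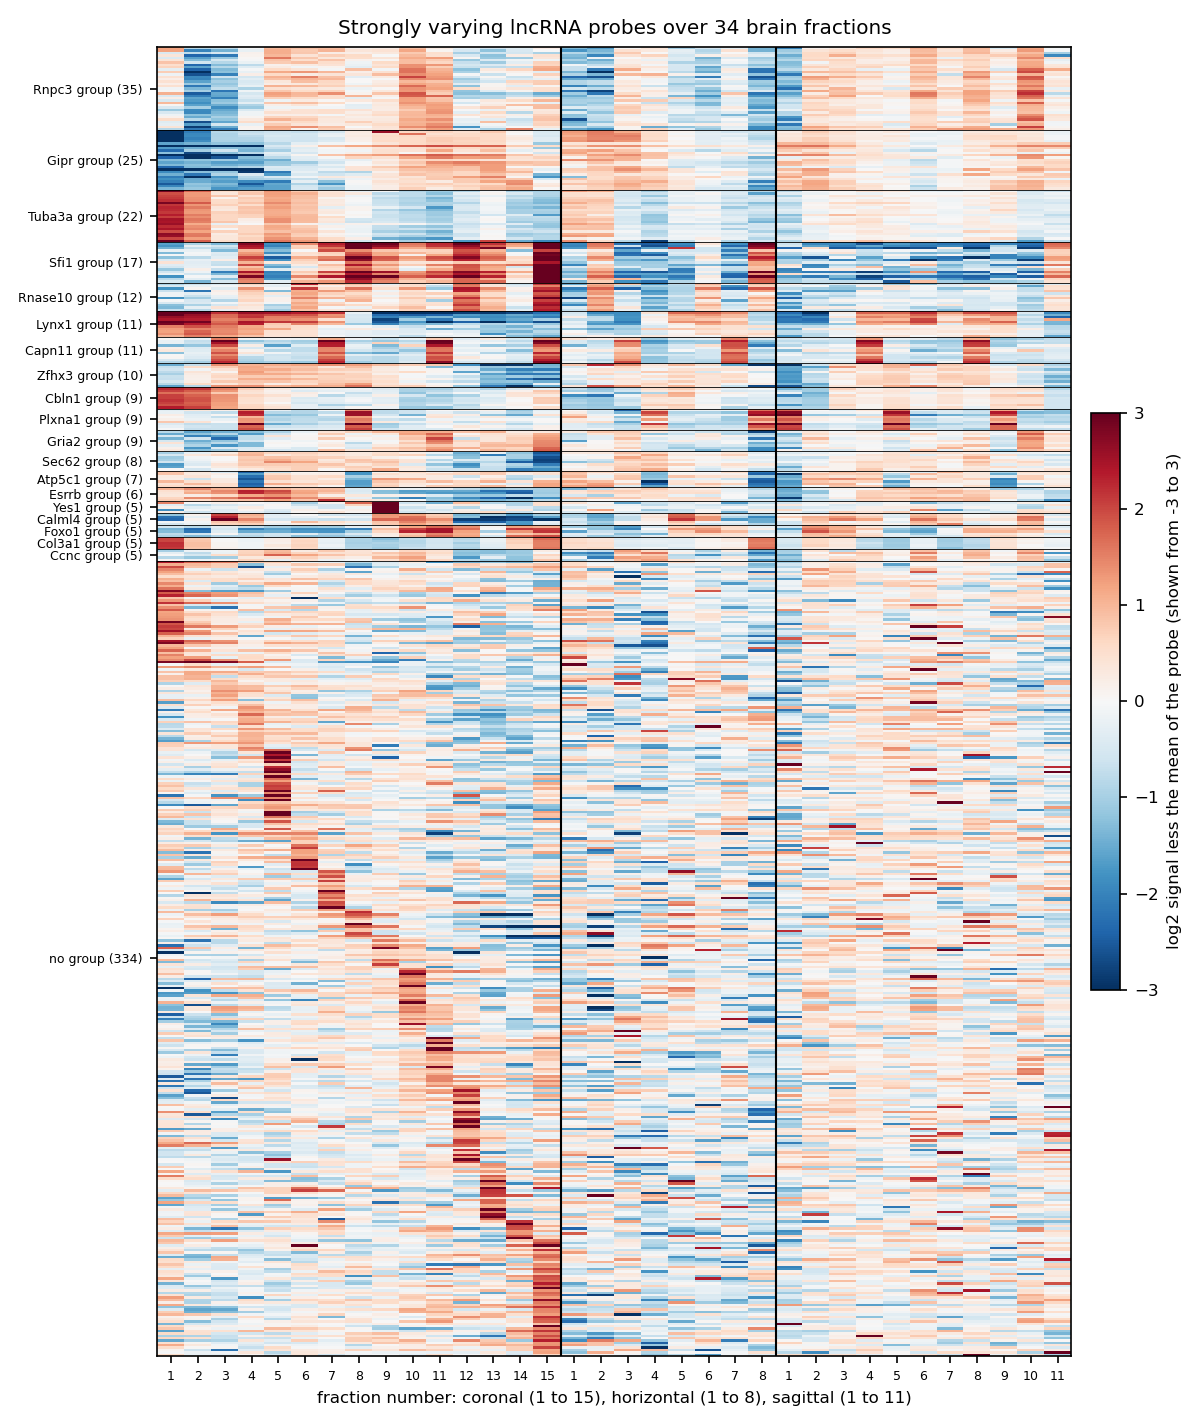
The heat map shows the log2 signal of the 550 probes (rows) less the mean of each probe in the 34 fractions (columns: coronal 1 to 15, horizontal 1 to 8, sagittal 1 to 11), with colours cut at -3 and 3. Rows are ordered by the 19 groups of similar profile, each named by a protein-coding gene among the nearest to its mean, and then by peak for the 334 probes in no group. Bands that fade over neighbouring fractions, as in the Gipr, Lynx1 and Cbln1 groups, stand beside stripes that recur every few fractions, as in the Capn11, Plxna1 and Atp5c1 groups.

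Coronal peaks were spread unevenly over the fractions. The highest coronal value lay in fraction 1 for 86 probes and in fraction 15 for 88, with further peaks in fractions 10 and 11 (54 each) and fraction 5 (49), while fraction 14 was the peak of 13 probes. In blocks of 3 coronal fractions, 117, 95, 62, 144 and 132 of the 550 probes peaked from the first block to the last, that is 21.3%, 17.3%, 11.3% and 26.2% in the first 4 blocks, against 15.7%, 13.8%, 10.5% and 27.4% of the other detected lncRNA probes. The share was higher than among the other probes in fractions 1 to 6, and in fractions 13 to 15 the 132 peaks compare with 32.6% of the other probes, a difference that was not tested. After the normexp correction 119, 41, 38, 133 and 219 of the 550 peaked in these blocks, so that the order of the blocks depends on the background correction. In the horizontal series fraction 3 held most peaks (111) and in the sagittal series fraction 10 (88) and fraction 6 (76). Horizontal fractions 3 and 4 and sagittal fractions 10 and 11 were hybridised on slide 5. The other horizontal fractions were on slide 1 and most sagittal ones on slide 4. Peaks in horizontal fraction 3 and sagittal fraction 10 thus cannot be told apart from the slide. Counts for these 2 planes are not given for the other lncRNA probes.

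**Figure D2:**
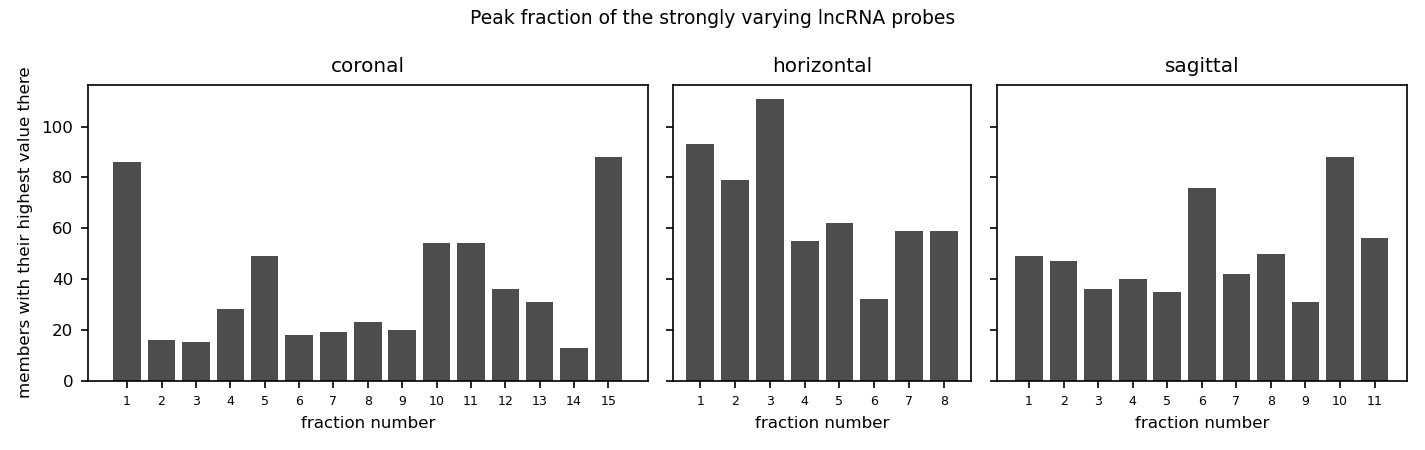
The bars give the number of probes, out of 550, whose highest log2 signal within a plane fell in each fraction (x axis: fraction number; y axis: number of probes from 0). Coronal fractions 1 and 15, with 86 and 88, horizontal fraction 3, with 111, and sagittal fraction 10, with 88, hold the highest bars of their planes.

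Which genes shared these profiles was described with Pearson's r, taken over the 34 fractions between each probe and every detected NM_ probe. The highest r had a median of 0.814 (0.562 to 0.992), against 0.794 for the other lncRNA probes. A protein-coding probe at r of 0.85 or more, the threshold of the similarity search of the study, was found for 214 of 550 probes (38.9%) on 152 intervals, where the share over all 5793 detected lncRNA probes was 32.1%. Among probes detected in all 34 fractions the share was 89 of 100, against 1546 of 3325 (46.5%) of the other lncRNA probes. Of these 100, 21 had at least 50% of their variance between array columns, as described further on, against 59 of the 3325 (1.77%). Without the members of this kind, 185 of 511 (36.2%) had a protein-coding probe at r of 0.85 or more. The members were chosen for a large spread over the same 34 values that enter r, so that their shares beside those of the other probes are no test. The fractions of a plane are neighbours in 1 brain and the best of 20061 probes was taken, so these values are a description over 34 fractions and no p is attached to them. The genes most often nearest were Rnpc3 (13 probes), Capn11 (8), Cbln1 and Gm11559 (6 each), and Pou3f1 and Rnase10 (5 each).

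The partner was then read in fractions that had not chosen it. When the protein-coding probe was chosen in the coronal fractions alone, its r in the horizontal fractions had a median of 0.481 and in the sagittal fractions 0.390, against 0.408 and 0.332 for the other lncRNA probes. Both values were 0.7 or more for 102 of 550 probes (18.5%), where the share over all detected lncRNA probes was 11.5%. Of the 39 probes whose signal differed between the places of the arrays, described further on, 31 passed, and without such probes the count was 71 of 511 (13.9%), against 514 of 5166 (9.95%). The horizontal and sagittal values did not choose the partner, but they entered the SD that chose the members. The shares beside those of the other probes are therefore a description.

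**Figure D3:**
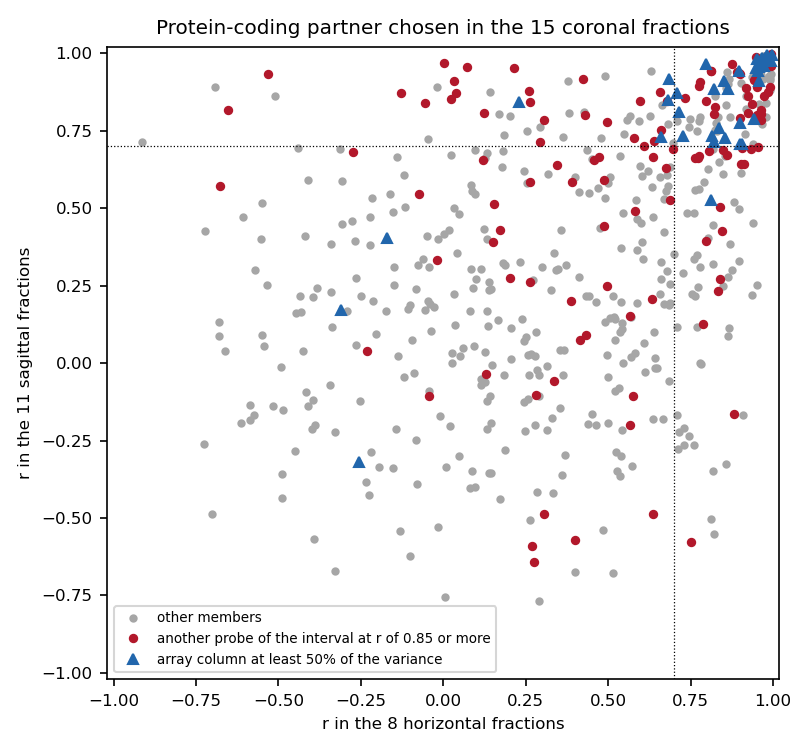
Each point is 1 of the 550 probes, with the r of the protein-coding partner chosen in the coronal fractions read in the 8 horizontal fractions (x axis) and in the 11 sagittal fractions (y axis), and dotted lines at 0.7. Red points have another probe of the same interval at r of 0.85 or more, and blue triangles are the 39 probes for which the array column accounted for at least 50% of the variance. The upper right corner holds 102 probes, 31 of them triangles.

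Average-linkage clustering at r of 0.7 gave 19 groups of at least 5 probes, holding 216 of the 550, while 226 probes stood alone. A group is called here by a protein-coding gene whose profile is among the nearest to its mean. The clustering used all 34 fractions of these probes, so a group is a description, and its values against the rest are no test.

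The Gipr group held 25 probes on 13 intervals of 7 chromosomes, among them probes with some of the largest SD of the set. Its mean was lowest in coronal fraction 1 (-5.17), highest in coronal fraction 13 (-1.40) and had a coronal median of -2.51. The mean profile was nearest to Gipr, a receptor for an incretin hormone (r = 0.961) and Mpped1 (0.959), and had an r of 0.944 with the mean of the cortex and hippocampus list. Of the 25 probes, 5 reached the SD after the normexp correction. All 25 probes had a protein-coding probe at 0.85 or more, and 22 had another detected probe of the interval, with a median r of 0.975 between the probes. Over 34 fractions the group mean had an r of -0.167 with the brightness of the arrays.

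Within the group, 5 probes on the reverse strand of chr4:124127144-124334840 were nearest to Pou3f1, a POU factor of cortical neurons whose gene is on the same chromosome, at r of 0.935 to 0.992. A_30_P01022502, the highest of them, ran from -5.08 in coronal fraction 1, a value at background, through a coronal median of -1.47 to -0.35 in coronal fraction 11. Its horizontal values fell from 0.45 in fraction 2 to -1.74 in fraction 8, and its sagittal values stayed between -1.36 and -0.39. The r with Pou3f1 was 0.99 in the horizontal and 0.89 in the sagittal plane. Without coronal fraction 1 the SD fell from 1.00 to 0.716.

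The group also held neighbouring intervals of chromosome 1. Both probes on the forward strand of chr1:42689799-42749799, A_30_P01023240 and A_30_P01029716, were nearest to the non-coding gene Pantr1, a neighbour of the POU factor gene Pou3f3 on this chromosome, at r of 0.978 and 0.975, above any protein-coding gene (0.939 for Arrdc2 and 0.937 for Snapc4). A_30_P01023240 ran from -2.75 in coronal fraction 3 to 0.46 in coronal fraction 12, with a median of -1.12. The next interval, chr1:42758928-42771337, carried 3 probes of the set on both strands. Of these A_30_P01032893 had an r of 0.952 with the non-coding gene 2900092D14Rik of the same chromosome, whose promoter is given above, and of 0.934 with Hr, and its coronal values lay between -1.51 in coronal fraction 1 and 1.13 in coronal fraction 13. On chromosome 3, 5 probes on the nested intervals chr3:137736327-137752677 and chr3:137742666-137744470 were closest to Inhba, a subunit of activin, in 4 cases (0.919 to 0.939), and to Rbm6 in the fifth, A_30_P01026252 (0.900, with Inhba also at 0.900). The gene of Inhba lies on another chromosome. All 5 had the lowest coronal value in 1 of fractions 1 to 5 and coronal maxima of -2.89 to -1.83.

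The opposite gradient was that of the Lynx1 group, 11 probes on 5 intervals, with its highest mean in coronal fraction 2 (-0.58), its lowest in coronal fraction 13 (-4.44) and high values in the middle of the other planes (horizontal and sagittal fraction 6). Among the nearest genes were Lynx1, a modulator of nicotinic receptors (r = 0.954), and Nefh, the heavy neurofilament chain (0.939), and the mean of the hindbrain Hox list had an r of 0.892 with the group. Of its probes, 6 lie on the overlapping forward-strand intervals chr2:33500594-33501874 and chr2:33496712-33501183. A_30_P01032763, on the shorter interval, was at 1.04 in coronal fraction 1, stayed between -0.83 and 0.72 up to fraction 7, and was not well above background from fraction 11 on (-5.47 to -4.06). In the horizontal series it rose from -4.27 in fraction 3 to -0.73 in fraction 6, and in the sagittal series it was lowest at the sides (-4.35 in fraction 1, -3.55 in fraction 11) and highest in fraction 6 (-0.13). Its r was 0.923 with Lhx1, a homeobox factor of hindbrain and spinal interneurons. A_30_P01026088, on the same interval, had an SD of 2.31 and was nearest to Evx1, a homeobox factor of spinal interneurons (0.921). Lhx1 and Evx1 lie on other chromosomes. The partner chosen for A_30_P01032763 in the coronal fractions alone had an r of 0.07 in the horizontal fractions and 0.96 in the sagittal ones.

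Another interval of this group, on the reverse strand of chr7:128341797-128414692, followed Skap2, an adaptor of Src-family kinases encoded on another chromosome. Its 3 probes had r of 0.946 to 0.985 with Skap2, and the highest, A_30_P01026095, kept an r of at least 0.98 in each plane. That probe peaked at 2.75 in coronal fraction 2 and was lowest at -0.39 in fraction 14, with a median of 0.78. The group as a whole had an r of 0.904 with the mean of the astrocyte and radial glia list and 0.810 with the oligodendrocyte list, and its r with array brightness was 0.453. The part of these in the profile was not tested. Of its 11 probes, 3 reached the SD after the normexp correction.

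These coronal profiles also run along the slides. Coronal fractions 1 to 8 were hybridised on slide 2 and fractions 9 to 15 on slide 3, except fraction 12 on slide 5, so that a step between fractions 8 and 9 cannot be told apart from the slide. The slide accounted for a median of 57.4% of the variance of a probe in the Lynx1 group, and for 49.5% in the Gipr group, 63.5% in the Esrrb group and 59.4% in the Tuba3a group, of which the last 2 are described below. Within slide 2 the mean of the Lynx1 group ran from -0.61 in coronal fraction 1 to -3.15 in fraction 8, and it was at -4.44 to -4.08 on slide 3 and at -3.93 in fraction 12. The mean of the Gipr group rose within slide 2 from -5.17 to -2.22, and that of the Esrrb group was at -2.21, -1.19 and -2.92 in coronal fractions 1, 4 and 8. Sagittal fractions 2 to 9 shared slide 4, and there the Lynx1 mean ran from -4.30 in fraction 2 to -1.72 in fraction 6. Sagittal fraction 1 was on slide 3, and sagittal fractions 10 and 11 on slide 5. Horizontal fractions 3 and 4 were also on slide 5, and the other horizontal fractions on slide 1. A difference between these fractions and their neighbours on another slide cannot be told apart from the slide either.

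**Figure D4:**
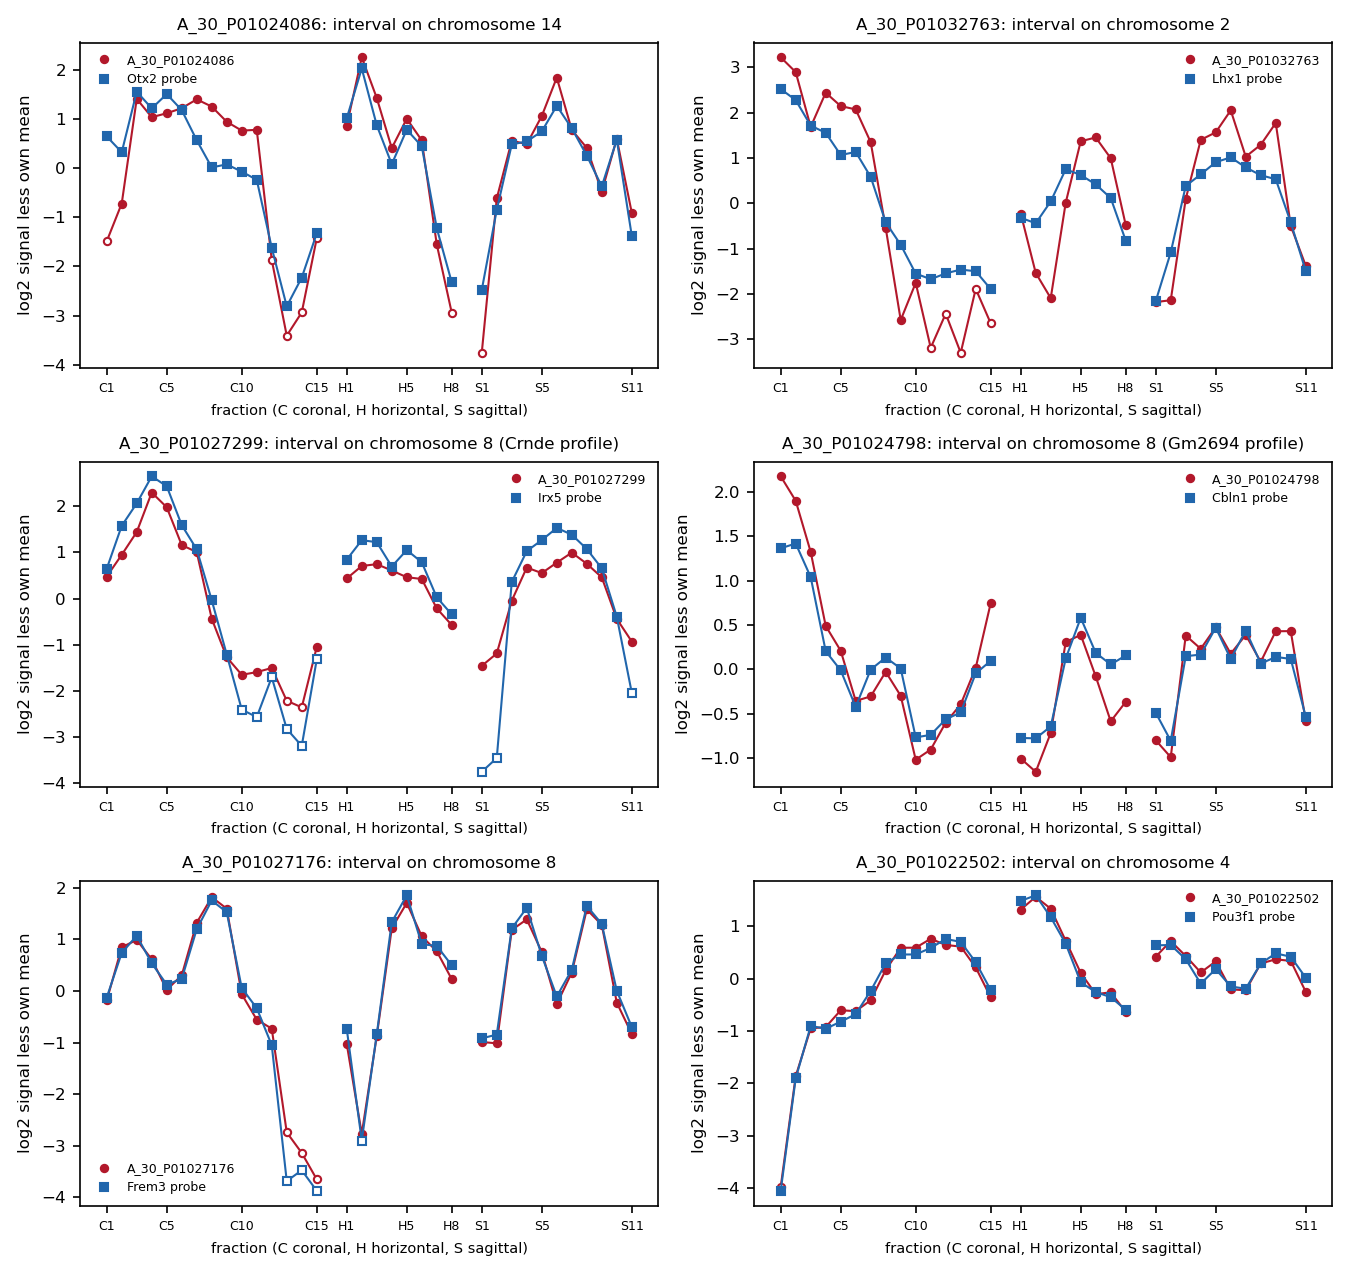
Each panel plots 1 lncRNA probe (red circles) and the protein-coding probe named in its legend (blue squares) over the coronal (C1 to C15), horizontal (H1 to H8) and sagittal (S1 to S11) fractions, as log2 signal less the mean of each probe over the 34 fractions. Open symbols are values not well above background. The lncRNA probe on chromosome 14 and Otx2 are both low in coronal fractions 12 to 15, the interval on chromosome 2 and Lhx1 fall along the coronal series, and the Frem3 and Pou3f1 pairs overlie each other in all planes (r of 0.991 and 0.992 over 34 fractions).

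A peak at the first coronal fractions was shown by the Cbln1 group, 9 probes on 4 intervals. Of these, 8 lie on the forward strand of 3 overlapping intervals of chromosome 8, chr8:89996710-90049453, chr8:90000619-90061169 and chr8:90048940-90049461. Their nearest non-coding gene was Gm2694 in all cases, at r of 0.885 to 0.996, and 6 of the 8 had Cbln1 as the nearest protein-coding gene, at 0.919 to 0.941. Cbln1 encodes cerebellin 1, a synaptic organiser that granule cells release onto Purkinje cells. In the RefSeq order of genes no gene lies between Gm2694 and Cbln1. A_30_P01024798 was at 4.96, 4.68 and 4.10 in coronal fractions 1 to 3, reached its lowest value of 1.76 in fraction 10 and was at 3.53 in fraction 15. In the horizontal series it peaked at 3.17 in fraction 5 against a lowest value of 1.62, and in the sagittal series the outer fractions were lowest (1.79 to 2.20 in fractions 1, 2 and 11, against 2.86 to 3.25 in the others). The group mean had an r of 0.889 with the cerebellum and granule cell list. The remaining probe, A_30_P01022960 on chr15:82036791-82037660, reached only 0.814 (Iqsec3).

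The Esrrb group held 6 probes on 5 intervals, with a mean highest in coronal fraction 4 (-1.19) and lowest in fraction 14 (-4.63). Of its probes, 3 lie on the reverse strand of the nested intervals chr8:94841965-94881130 and chr8:94849929-94870274. They were nearest to the non-coding gene Crnde (0.967 to 0.990) and to the Iroquois homeobox genes Irx1 and Irx5, factors of neural patterning, and RefSeq lists no gene between Crnde and Irx5. A_30_P01027299 rose from -1.60 in coronal fraction 1 to 0.22 in fraction 4 and fell to -4.44 in fraction 14, not well above background. In the sagittal series it formed an arch from -3.54 in fraction 1 to -1.08 in fraction 7 and -3.01 in fraction 11, while its horizontal values changed little from fraction 1 to fraction 6 (-1.66 to -1.33) and dropped to -2.65 in fraction 8. Its r with Irx5 was 0.99 in the coronal, 0.96 in the horizontal and 0.97 in the sagittal plane. The other probes of the group, on chromosomes 7, 12 and 13, had highest r of 0.848 to 0.944 with other genes. The group had an r of 0.899 with the mean of the midbrain list and of 0.633 with the brightness of the arrays. The part of brightness was not tested. After the normexp correction 1 of the 6 probes reached the SD.

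The Zfhx3 group (10 probes on 6 intervals) had a mean of -2.49 to -1.35 in coronal fractions 2 to 11 and of -4.26 to -3.12 in fractions 12 to 15. Its nearest gene was Zfhx3, a large homeobox factor of neurons (r = 0.965). Of 5 detected probes that share chr14:55671783-55680316 on the reverse strand, A_30_P01019112 and A_30_P01032418 belong to the set and had r of 0.963 and 0.957 with Zfhx3. The former ran from -0.83 in coronal fraction 13 to 1.19 in fraction 5 (median 0.60), with -1.30 in sagittal fraction 1 and 1.21 in sagittal fraction 7. The 3 probes on chr8:111669528-111771285 followed Rit2, a small GTPase of neurons, at 0.925 to 0.947 over all fractions, but at 0.15 to 0.37 within the horizontal plane, where the values of A_30_P01022242 lay between -1.47 and -0.76. The mean of the group had an r of 0.718 with array brightness, whose part was not tested, and none of its 10 probes reached the SD after the normexp correction.

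The same group held an interval that followed Otx2, a homeobox factor of the diencephalon, midbrain and choroid plexus. Both probes on the forward strand of chr14:49288962-49413023, on the chromosome of Otx2, had it as the nearest gene, at r of 0.912 (A_30_P01024086) and 0.876 (A_30_P01031980), and at 0.95 or more in the horizontal and sagittal planes. The partner chosen in the coronal fractions alone was another gene, with an r of -0.65 and -0.53 in the horizontal fractions. A_30_P01024086 was at -2.40 to -1.76 in coronal fractions 3 to 11 and at -6.57 to -4.59 in fractions 12 to 15, where it was not well above background. It peaked at -0.91 in horizontal fraction 2 and at -1.33 in sagittal fraction 6. The next genes were Lhx9 and Tcf7l2, factors of the thalamus, at 0.828 and 0.824.

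Probes with a double peak along the coronal axis followed genes of the choroid plexus, the tissue that secretes cerebrospinal fluid. The 5 probes of the Calml4 group, on 4 intervals of as many chromosomes, had their highest mean in coronal fraction 3 (-1.74) and in horizontal fraction 5 (-2.17), and their mean had an r of 0.916 with the choroid plexus list and 0.825 with the ependyma list. It also had an r of 0.546 with the brightness of the arrays, whose part was not tested, and none of the 5 probes reached the SD after the normexp correction. A_30_P01031441, on the forward strand of chr8:67542714-67561694, was at -0.37 in coronal fraction 3, at -4.48 to -4.28 in fractions 5 to 8, at -2.39 to -2.05 in fractions 9 to 11 and not well above background from fraction 12 on (-6.75 to -6.43). The step between fractions 8 and 9 is also that from slide 2 to slide 3, so that the second rise cannot be told apart from the slide. Its nearest gene was Slc4a5, a sodium bicarbonate transporter of the choroid plexus (r = 0.963). A_30_P01030416 on chr1:90340543-90359181 was nearest to Folr1, the folate receptor of that epithelium (0.965), and A_30_P01019026 on chr17:26911397-26917047 to Trpm3, a cation channel (0.966). All 3 genes lie on other chromosomes than the probes. Both probes of the group on chr3:35236023-35241498 peaked in coronal fraction 10 and not in fraction 3.

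All 5 probes of the Foxo1 group lie on the reverse strand of the nested intervals chr11:33414450-33450750 and chr11:33442089-33444467. The mean of the group was highest in coronal fraction 11 (-2.24) and in horizontal fraction 6 and sagittal fraction 2. None of the 5 reached the SD after the normexp correction. A_30_P01026421 was not well above background in coronal fractions 1 to 8 (-7.51 to -5.75) and was at -4.29 to -2.71 in fractions 9 to 12. Here too the step between fractions 8 and 9 cannot be told apart from the change from slide 2 to slide 3. Foxo1, a forkhead factor, had an r of 0.851 with it and of 0.882 with the group, Ppp1r1b (DARPP-32 of striatal neurons) one of 0.814, and the mean of the striatum list one of 0.662. Adora2a, the adenosine receptor of striatal neurons, was the second nearest gene of A_30_P01017787 (0.829).

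H19 was the one named transcript with a group of its own. It is an imprinted lncRNA expressed from the maternal allele and abundant in embryonic mesoderm. Its 5 probes formed the Col3a1 group, with r of 0.992 or more between each and another probe of the transcript, and were highest towards the edges of the coronal and horizontal planes. A_30_P01021588 was at 5.57 in coronal fraction 1, at 2.27 in fraction 9 and at 5.25 in fraction 15, at 5.14 in horizontal fraction 8 against 3.15 in fraction 3, and at 4.12 in sagittal fraction 2 against 2.48 in fraction 5. The nearest genes of the mean were Col3a1 (0.928) and Col6a2 (0.923), collagen chains of fibroblasts, the nearest non-coding gene was Igf2os (0.759), and the mean of the list for meninges and fibroblasts had an r of 0.876 with the group. All 10 genes of that list were detected. KCNQ1ot1, the antisense transcript of another imprinted domain, had 1 probe in the set, A_30_P01026203, of which 68.5% of the variance lay between array columns, as described below.

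Some intervals outside the groups matched a single gene closely. A_30_P01027176, on the forward strand of chr8:83210957-83219451, had an r of 0.991 with Frem3, an extracellular matrix protein whose gene is on the same chromosome, and at least 0.99 in each plane. It had coronal maxima in fraction 3 (-0.76) and fraction 8 (0.07), was not well above background from fraction 13 on (-5.40 to -4.49), rose in the horizontal series from -4.52 in fraction 2 to -0.04 in fraction 5, and had sagittal maxima in fractions 4 (-0.36) and 8 (-0.17) with a dip to -0.99 in fraction 5 and lower still in fraction 6. The next gene reached 0.880. Other probes of this interval gave 0.988 (A_30_P01032677) and 0.868 (A_30_P01018173).

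A_30_P01018351, on the forward strand of chr4:114585803-114588898, followed Foxd2os (0.982) and Foxd2 (0.938), a forkhead factor, both on the same chromosome and next to each other in RefSeq. It peaked in the last fraction of all planes, at -0.54, -1.31 and -2.11 in coronal fraction 15, horizontal fraction 8 and sagittal fraction 11, against medians of -3.01, -3.08 and -2.62. Foxc1, a forkhead factor of the meninges, had an r of 0.899 with it. A_30_P01031372, on the reverse strand of chr3:87757295-87774970, peaked in the same 3 fractions and was nearest to Crabp2, a carrier of retinoic acid on the same chromosome (0.885).

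The 3 probes on the forward strand of chr2:115900355-115900904 followed Meis2, a homeobox factor of the striatum and olfactory bulb on the same chromosome, at 0.853 to 0.888. The one with the highest r, A_30_P01031324, ran from -3.28 in coronal fraction 1 to 0.44 in fraction 11, with -2.37 in horizontal fraction 2 and -0.19 in horizontal fraction 7. Its partner chosen in the coronal fractions alone, another gene, had an r of 0.40 in the horizontal and -0.57 in the sagittal plane. A_30_P01027996, on the reverse strand of chr2:84344350-84370075, followed Hap1, a huntingtin-associated protein of hypothalamic and other neurons encoded on another chromosome, at 0.975 overall and 0.97 or more in each plane. Its values formed an arch in the sagittal series, from -2.68 in fraction 1 to 0.15 in fraction 5 and -2.16 in fraction 11. Another detected probe of the same interval did not share this profile (r = -0.377).

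The largest group lay near the background. The Rnpc3 group held 35 probes on 20 intervals of 7 chromosomes, and neighbouring intervals recurred in it: 5 lie between chr16:40267386-40268181 and chr16:40471828-40472481 and 4 between chr1:139795171-139796306 and chr1:139847592-139848243, all on the forward strand. Its mean peaked in coronal fraction 10 (-2.72), horizontal fraction 3 (-3.57) and sagittal fraction 10 (-2.56) and was lowest in coronal fraction 2 (-5.72). Horizontal fractions 3 and 4 (-3.86) were on slide 5, and the horizontal fractions on slide 1 were at -5.25 to -4.09. Sagittal fractions 10 and 11 (-3.87) were also on slide 5. The horizontal and sagittal peaks of the Rnpc3 group thus cannot be told apart from the slide. The nearest genes were Rnpc3, a protein of the minor spliceosome (0.928), Gab3 (0.867) and the non-coding Mir99ahg, the host of a microRNA cluster (0.882). A_30_P01020887, on chr16:40267386-40268181, ran from -7.29 in coronal fraction 2 to -2.12 in fraction 10, with a median of -3.55. None of the 35 reached the SD after the normexp correction. The r of the mean with array brightness was -0.012, and the mean of the list of known brain lncRNAs (13 of 28 detected) had an r of 0.840 with it.

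The Gria2 (9 probes), Sec62 (8) and Ccnc (5) groups had coronal maxima of their means at -2.83, -3.37 and -4.15. In the horizontal series the Gria2 mean peaked in fraction 3 and the other means in fraction 4. Both fractions were on slide 5, so that these horizontal peaks cannot be told apart from the slide. Gria2 encodes a subunit of AMPA receptors, Sec62 a part of the translocon of the endoplasmic reticulum, and Ccnc cyclin C. None of these 22 probes reached the SD after the normexp correction. The mean of the Sec62 group had an r of 0.787 with the brightness of the arrays, the highest of the 19 groups, and its part was not tested. In the Ccnc group the nearest non-coding gene was Meg3, an imprinted lncRNA of neurons (0.812).

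The Sfi1 group had its highest coronal mean in fraction 15 (-1.04) and its highest sagittal mean in fraction 11 (-3.73). In that group (17 probes on 13 intervals) 5 of the 10 probes with the largest SD are found, all on the forward strand of chr5:14943275-14944205 and chr5:15146475-15170100. A_30_P01031842 was at 0.06 in coronal fraction 15, had a coronal median of -2.80 and a minimum of -7.11, and was well above background in 11 coronal, 3 horizontal and 1 sagittal fraction. Its values did not run smoothly along the axes: the autocorrelation of neighbouring fractions over all planes, defined further on, was -0.07. Sfi1, a centrosome protein, and Fscn3, a fascin of testis, were nearest to the mean at 0.869 and 0.862. The Rnase10 group (12 probes on 11 intervals) was nearest to Rnase10 (0.951) and Tpsb2, a mast cell tryptase (0.939). Its mean was highest in coronal fraction 15 (-1.59), with -1.99 in fraction 12 and -2.59 in fraction 6, and in sagittal fraction 11 it was at -3.52, against -4.83 to -4.04 in the other sagittal fractions. The 7 members with another detected probe on the interval had a median r of 0.294 with it. None of the 12, and 5 of the 17 of the Sfi1 group, reached the SD after the normexp correction.

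In a further group the profile was not shared between probes of an interval. The Tuba3a group held 22 probes on as many intervals of 11 chromosomes, 19 of them detected in all 34 fractions, with a mean of 2.44 in coronal fraction 1 and a coronal median of 0.091. A_30_P01024801, on the reverse strand of chr5:52998788-53010250, was at 4.86 in coronal fraction 1 and 1.69 in fraction 11, and had an r of 0.991 with Gkn1. The nearest genes were Tuba3a, a testis tubulin (0.988), Gkn1, a stomach protein (0.987), Spef2, a protein of sperm flagella (0.986), and vomeronasal receptors such as Vmn1r240 (0.970). For the 14 probes with another detected probe of the same interval the median r with it was 0.166, against 0.975 in the Gipr group and 0.988 in the Cbln1 group.

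Over all 417 probes that had another detected probe on the interval, the highest r with such a probe had a median of 0.576, close to the 0.594 of the other lncRNA probes. The medians given for single groups above were taken from the highest r in the same way. In 117 probes (28.1%) on 52 intervals it was 0.85 or more, against 893 of 4085 (21.9%) of the other lncRNA probes. Among these 117, the nearest protein-coding gene was on the same chromosome in 28 of the 112 with a placed interval, against 20 of 299 (6.69%) where the other probe fell under 0.85. These are counts of probes and not of loci, since probes of 1 interval with a shared profile tend to share the nearest gene. The intervals of the 28 were not counted, and the difference was not tested. A probe of the opposite strand existed for 287 members, and where there were several the one with the highest r was taken. The median r with it was 0.288, against 0.354 for the other lncRNA probes. The 3 that reached 0.85 were A_30_P01023240 (0.981) and A_30_P01029716 (0.971) of the interval near Pantr1 in profile and A_30_P01031372 (0.870). Of these 287 opposite probes 117 passed the detection condition, and for them the median r was 0.387. After the normexp correction the median over the 287 was 0.616, so that its level depends on the treatment of the background. Where members on overlapping but different intervals followed each other along a chromosome, the 15 pairs of 1 strand had r of -0.03 to 0.994 with a median of 0.644, and the 24 pairs of opposite strands had r of -0.46 to 0.839 with a median of -0.02, a difference that was not tested. The highest r was that of A_30_P01032788 and A_30_P01027299 of the intervals that followed Crnde.

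For all placed members, the nearest protein-coding gene lay on the chromosome of the interval in 57 of 544 cases (10.5%), where the share over all detected lncRNA probes was 7.88%. At an r of 0.85 or more the count was 35 of 208 (16.8%), on 19 intervals, against 166 of 1633 (10.2%) of the other lncRNA probes. The 35 include 6 probes for Cbln1, 5 for Pou3f1, 3 each for Frem3 and Meis2, 2 each for Otx2 and Sec62, and 1 each for Irx5, Foxd2 and Crabp2. Pou3f1, Otx2, Irx5, Foxd2 and Meis2 encode transcription factors. Of the rest, A_30_P01028492 (Slc12a8) and A_30_P01025255 (Tuba3a) belong to the Tuba3a group.

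Along the axes, the likeness of neighbouring fractions was measured by an autocorrelation, which is not Pearson's r. Products of neighbouring deviations from the plane mean were summed over all planes and divided by the sum of squared deviations. This value was 0.5 or more for 102 of 550 probes (18.5%), against 485 of 5243 (9.25%). Its median was 0.143 for the members and 0.197 for the other probes. With sagittal fraction 6 taken as the middle, an assumption the labels do not state, the 5 mirror pairs gave a median r of 0.428, against 0.357. Mirror values reached 1.00 for A_30_P01019112 (Zfhx3) and A_30_P01027996 (Hap1).

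For some probes of the set the signal differed between the places of the arrays on their slides. Each slide holds arrays in 4 columns, and for 39 of 550 probes (7.09%) the column accounted for at least 50% of the variance over the 34 fractions, against 77 of 5243 other lncRNA probes (1.47%) and 2.11% of all 32431 detected probes. The Capn11 group (11 probes on 9 chromosomes) was at -0.12 to 0.74 on the 8 arrays in column 3 and at -2.50 to -1.54 on the other 26, a mean difference of 2.37. The Plxna1 group (9 probes) was at 0.80 to 1.89 on the 7 arrays of column 4 against -1.35 to -0.08 elsewhere, and the Atp5c1 group (7 probes) at -6.25 to -4.90 against -4.14 to -3.09. None of these ranges overlapped. Arrays of 1 column recur along each plane, and these probes had some of the highest r with protein-coding probes, such as 0.992 for A_30_P01027463 with Gm11559 and 0.989 for A_30_P01018146 with Capn11. None of the 23 with another detected probe of the interval had an r of 0.85 or more with it. On even rows and even columns of the array lay 38 of the 39 spots (97.4%), against 30.1% of the other 511 members and 13920 of all 55681 probes. This placement was not particular to the members. It held for 651 (95.3%) of all 683 detected probes with at least 50% of the variance between array columns. Of the 3 probes with the highest median signal in the set, 2 were of this kind (A_30_P01028020 and A_30_P01026605), and the third was A_30_P01024770 of the Cbln1 group.

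**Figure D5:**
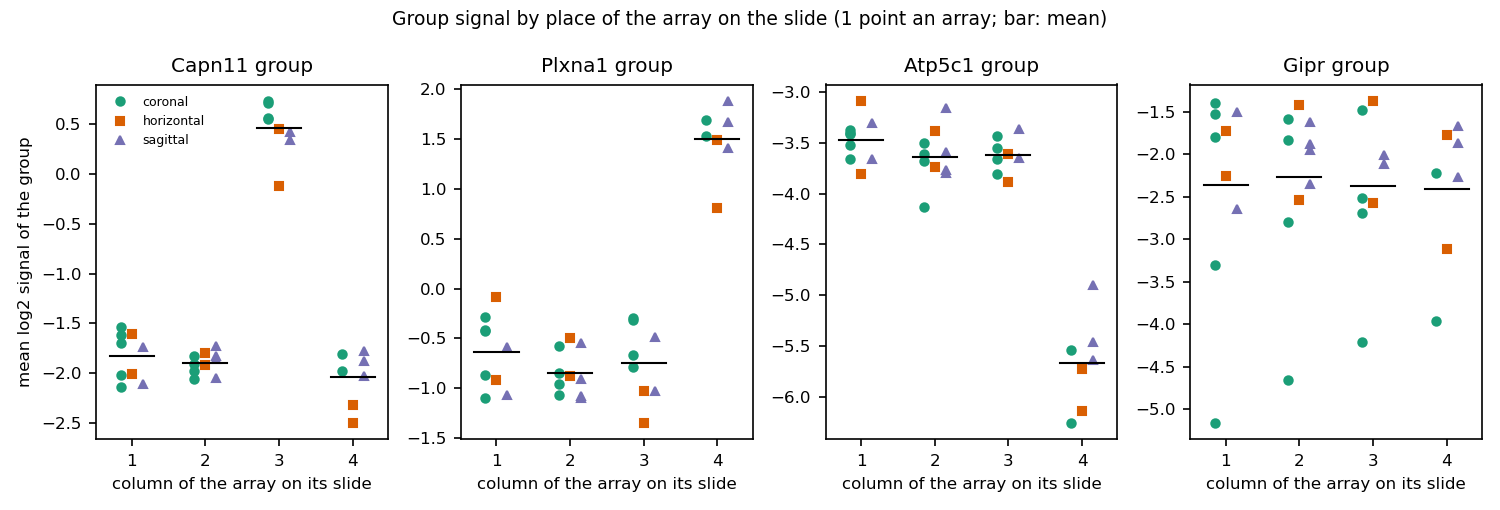
Each point is the mean log2 signal of a group on 1 of the 34 arrays, plotted by the column of the array on its slide, with colour and shape for the plane and a bar for the mean. The Capn11 group is higher on all arrays of column 3, the Plxna1 group higher and the Atp5c1 group lower on all arrays of column 4, while the Gipr group has overlapping ranges, from -5.17 to -1.40 in column 1, -4.65 to -1.42 in column 2, -4.21 to -1.37 in column 3 and -3.96 to -1.67 in column 4.

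Other members rested on 1 array. The 5 probes of the Yes1 group were raised in coronal fraction 9 alone, with values of 4.06 (A_30_P01017658), 3.80 (A_30_P01021545), 2.00 (A_30_P01020482), -0.21 (A_30_P01027601) and -0.64 (A_30_P01028540), while none exceeded -3.10 in another fraction. Of the 5 spots, 4 lie in rows 49 and 50 and columns 33 to 37 of the array, and the spot of Yes1, the gene nearest to them, lies at row 49 and column 34. A_30_P01027138 on chr19:16059564-16085402 was at 6.24 in sagittal fraction 6 and at -4.03 or less in all coronal and horizontal fractions. Its SD of 1.96 became 0.445 without that array.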

How the data were processed

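The arrays were scanned and read with Feature Extraction 10.10.1.1, per the file headers, and the deposited scanner files hold spot intensity and flags. The authors' deposited table holds 1 log2 value a probe and array, and 99.9% of its values lay within 0.02 of the log2 processed intensity less the 75th percentile of the array, so that the intensity was already background-subtracted there. The SD over fractions was computed from the table. The processed intensity of the scanner files, scaled to the same percentile, gave the peaks, Pearson's r with NM_ probes that passed the same detection condition, and average-linkage groups. It also gave the share of variance between slides, planes and array columns (Python 3.11.15, numpy 2.4.6, pandas 2.3.3, scipy 1.17.1). Normexp came from limma 3.58.1 in R 4.3.3. Genes were named, and placed on chromosomes, through RefSeq accessions (GRCm38.p6), and 299 detected NM_ probes were not matched.

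With 1 array a fraction there was no replicate and no test between fractions or planes, Dixon's critical value served only to pick single far values of the horizontal series, and the number of arrays limits the precision. The correlation code was tested on simulated data. Probes, gene lists and tests were chosen with earlier results of these data known. The rule for named probes took the 10 with the largest SD, the 3 with the highest r in each coronal block, the 3 with the highest median, the 3 on each side of the SD threshold and the 5 closest pairs on neighbouring intervals. Some probes and genes that these rules name are not reported here. Members of the profile groups and the other intervals described were chosen after their values were seen. The 20 gene lists gave means over their detected genes, and the members at an r of 0.85 or more with each mean were counted. Of the 550 members, 8 reached it for cerebellum, 4 for hindbrain Hox, 3 for midbrain, 7 for cortex, 3 for choroid plexus and 1 for ependyma. The count was 5 for meninges, 6 for astrocytes, 2 for pituitary and 3 for known brain lncRNAs. No member reached 0.85 for the thalamus, hypothalamus, striatum, olfactory bulb, blood, endothelium, microglia, oligodendrocyte, cell cycle and muscle lists. No such count is given for the other detected lncRNA probes, so whether any count differs from theirs was not tested. Alternatives were other scalings and background corrections, other detection and SD thresholds, other correlations and leaving out a fraction or slide.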

Additional observations from a re-analysis of the deposited data

Results flagged for a closer look

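In the horizontal series of 8 fractions, 3 of the 46 probes named by rule or by transcript had 1 fraction set apart from the others beyond Dixon's 95% critical value, and chance gives about 1 in 20. The probes were chosen for a large spread over these same fractions, and neighbouring fractions of 1 brain are not independent samples, so the values below are a description and not a test. All 3 values lay in horizontal fraction 8, an end of the series. A_30_P01019334, of the interval that followed Inhba, was at -5.23 there, not well above background, with the nearest other value at -3.57. The H19 probes A_30_P01025068 and A_30_P01028827 were at 4.80 and 2.81, with the nearest other values at 3.78 and 1.69. These 2 read the same transcript, and the other H19 probes were highest in the same fraction.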

How the results depend on the processing

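No paired analysis was possible because each fraction is 1 array and equal fraction numbers in different planes mark positions along different axes. No alternative that was run changed the sign of a median, and a count cannot change sign. The number of strongly varying probes was 550. It became 56 after the normexp correction, 258 with values near the background raised to the lowest signal well above it, 255 with the SD over detected fractions, 2886 with the weaker flag of a positive and significant signal, 964 with 1 detected fraction a plane, 100 with detection in all 34 fractions, and 967 and 310 at an SD of 0.6 and 0.8. It ranged from 508 to 555 without 1 fraction and from 400 to 528 without 1 slide. With the mean of each array column removed, 416 probes reached the SD, all among the 550. That alternative was added after seeing the data, and removing such means can only lower an SD. The count at r of 0.85 or more was 214, became 444 after normexp and 89 over the members detected in all fractions (added after seeing the data), and ranged from 209 to 222 without 1 fraction. The median highest r was 0.814, and became 0.801 with scaling to the array median, 0.900 after normexp and 0.8003 with Spearman's rho. It ranged from 0.814 to 0.821 without 1 fraction, and was 0.834, 0.837, 0.831, 0.846 and 0.827 without slides 1 to 5. The held-out medians were 0.481 in the horizontal and 0.390 in the sagittal plane. Leaving out a fraction of a plane that a median does not read cannot move it. The former became 0.297 with the partner chosen in the sagittal plane and ranged from 0.394 to 0.504 without 1 fraction, and the latter became 0.644 after normexp and 0.260 when read in the coronal plane, with a range of 0.357 to 0.423. After normexp 41, 38 and 219 of the 550 peaked in coronal fractions 4 to 6, 7 to 9 and 13 to 15. The median r with the opposite strand was 0.288, became 0.616 after normexp and 0.387 for opposite probes that were detected, and ranged from 0.266 to 0.302. The mirror median was 0.428 and ranged from 0.375 to 0.560. The cause of these shifts was not tested. The nearest protein-coding probe in the genome was not run, since positions of those probes were not used here. Signals near the background set the limit: probes detected in few fractions have an SD that rests on values that are not well above background.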
